A study of Mus musculus with 36 samples.

Results

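The liver RNA of the 10 mice that received Fc under the high-fat diet (HFD) was compared from mouse to mouse, to describe which genes varied most and which genes of inflammation, matrix, lipid metabolism and the clock rose and fell together. The 10 libraries were chosen by their sample titles, out of 36 in the series, and no difference between groups was tested. All 10 were male C57BL/6J mice bought at 7 weeks of age, and all shared 12 weeks on the CDAHFD, a choline-deficient diet low in methionine and rich in fat that causes steatohepatitis with fibrosis, followed by 2 weeks on the HFD. During the HFD weeks each mouse received Fc subcutaneously at 4.3 mg/kg once a week. Fc is the antibody fragment without the Met-binding peptide, and it served as the control of the study, so that the mice of this group differed by no treatment. The other 26 livers came from mice that received Fc(mML1)B3, the Met-activating fusion, on the HFD, and from mice that received either protein on the standard diet. Each library came from a separate mouse, and the spread described here is therefore between animals. Cage and hour of collection are not given in the sources used here.

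A fatty, fibrotic liver holds hepatocytes, which make plasma proteins, bile acids and lipids, beside the cells that accumulate in injury. Stellate cells and portal fibroblasts lay down collagen, bile duct cells expand as ductules, and macrophages gather around lipid-laden hepatocytes, where they take on a program marked by Gpnmb, Trem2 and Cd9 while resident Kupffer cells can be lost. Hepatocytes themselves divide their work along the lobule, with urea and glucose production near the portal vein and drug metabolism and glutamine synthesis near the central vein, and they switch cholesterol and fatty acid synthesis on and off through SREBP transcription factors. In whole tissue, fewer cells of a type and less RNA per cell cannot be told apart.

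The 10 libraries held 15111050 to 27600939 counted reads with a median of 19023641, and levels are given as CPM, counts scaled to a common library size. Mice 6, 7 and 8 had the lowest totals and mice 5 and 9 the highest. No pair of libraries was a duplicate (lowest chi-square per degree of freedom 20.1 over 45 pairs). The liver label was borne out by hepatocyte genes, of which Alb, the gene of serum albumin, ranged from 62938 CPM (mouse 4) to 114754 CPM (mouse 3) with a median of 84595 CPM. Genes of pancreas, adipose tissue and muscle summed to at most 17.7, 6.08 and 2.25 CPM. On the first principal component of log2 CPM over 12277 genes, which held 31.8% of the variance, mice 7 and 8 stood apart with scores of 33.3 and 30.9, and the others lay between -27.6 (mouse 5) and 7.53 (mouse 4). The second component held 23.4% of the variance. Values without these 2 mice are therefore given beside many of the results. Their library totals were among the 3 lowest. Fits with the library total as a second term are given below for the anchors, and the part of sequencing depth in other values was not tested.

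**Figure D1:**
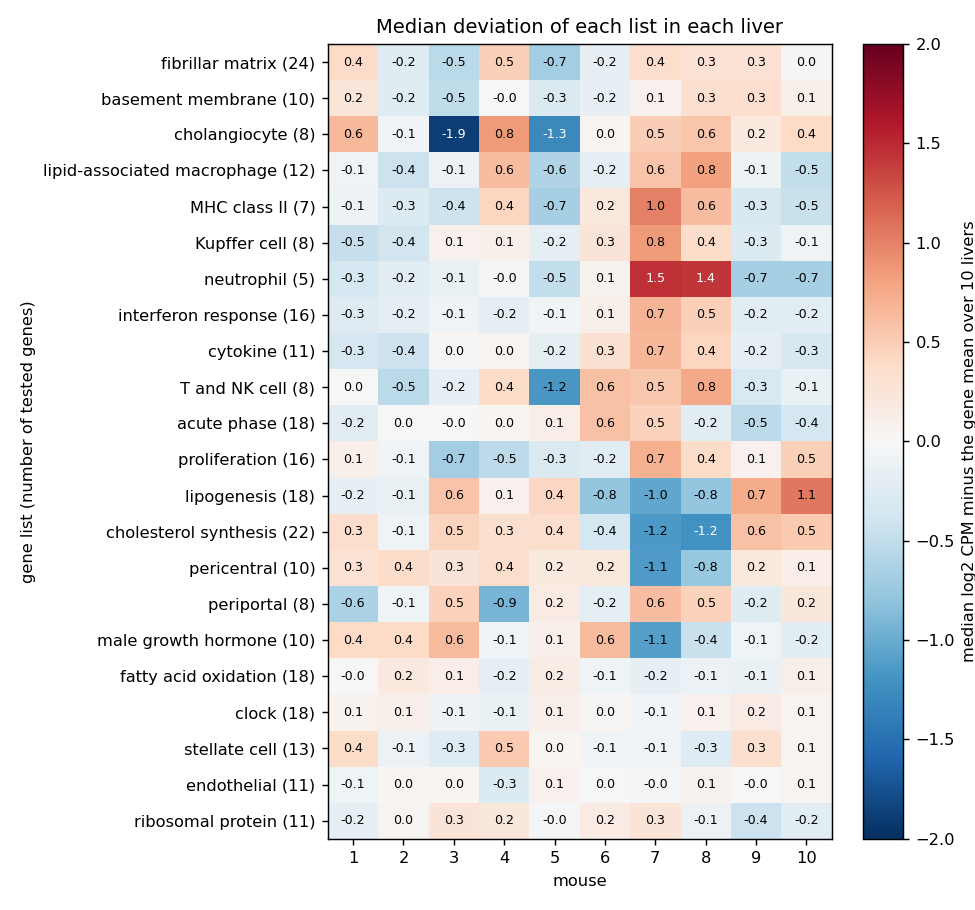
Each row is a gene list with its number of tested genes and each column a mouse, and the colour and the printed number give the median over the list of log2 CPM minus the gene's own mean over the 10 livers. Mice 7 and 8 stand at 1.46 and 1.43 for neutrophil genes and at -1.15 and -1.21 for cholesterol synthesis, and mice 3 and 5 at -1.88 and -1.28 for cholangiocyte genes.

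Most genes varied little among these livers. The filter for low counts dropped genes with too few reads in even 1 liver, so that genes nearly absent from some livers are not ranked here. Over the 11686 remaining genes with a mean of at least 2 CPM, the SD of log2(CPM + 1) had a median of 0.21 and a 95th percentile of 0.50. Of these genes, 44 (0.377%) had an SD above 1. Without the filter, at a mean of at least 0.5 CPM, 59 genes did, and 14 of the top 20 genes were the same. Of the 20 most variable genes, 15 had their most extreme value in mouse 7 and 2 in mouse 8. Without mice 7 and 8, 16 of the 44 genes still had an SD above 1.

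H19, an imprinted long noncoding RNA abundant in fetal liver (chr7:142575530-142578146 on the minus strand of mm10), varied most, with an SD of 2.64. It stood at 230.3 CPM in mouse 7 and 165 CPM in mouse 8, and between 0.732 and 9.38 CPM in the other 8 mice. It overlaps Mir675, and their reads cannot be told apart there. Among the 26 livers of the other groups its highest value was 4.37 CPM, and the difference between groups was not tested. Tff3, a trefoil factor secreted by mucous epithelia, ranged from 1.74 CPM (mouse 4) to 135.2 CPM (mouse 7) with a median of 2.89 CPM, and it stood at 59.6 CPM in mouse 8. Cyp2a4 and Cyp17a1, steroid hydroxylases, had 269.7 and 124 CPM in mouse 7, against medians of 16.8 and 11.2 CPM over the 10 livers. In these 4 genes mouse 7 was the highest liver and mouse 8 the next, although mouse 8 lay within 1 CPM of mouse 10 for Cyp17a1.

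Several of the most variable genes were lowest in mouse 7 instead, among them genes of the male program that pulsed growth hormone maintains in mouse liver. Slco1a1, an organic anion transporter, ranged from 3.57 CPM (mouse 7) to 233 CPM (mouse 3) with a median of 139.3 CPM. Cyp4a12a, a fatty acid hydroxylase, stood at 6.09 CPM in mouse 7 and 48.6 CPM in mouse 8, and between 69.4 and 133.2 CPM in the rest. Mup3, Mup14 and Mup21, which encode major urinary proteins, were likewise lowest in mouse 7, with Mup3 at 444 CPM there against a median of 2509 CPM. Reads shared between the near-identical Mup copies were not counted by the authors, and Mup14 overlaps Mup2, so their single values are uncertain. Sult2a8, a sulfotransferase, stood at 38.8 and 117 CPM in mice 7 and 8 and at 403 CPM or more elsewhere. Among the 10 tested genes of the male growth hormone list, the median pairwise r was 0.41, and 0.44 without mice 7 and 8. Serpina12, which encodes the adipokine vaspin, ranged from 4.43 CPM (mouse 7) to 140.5 CPM (mouse 3) with a median of 51.9 CPM.

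Other genes of the 20 stayed variable without mice 7 and 8. Clec4f, a lectin found on Kupffer cells, had an SD of 1.22, and 1.27 without them. It ranged from 7.74 CPM (mouse 4) to 96.5 CPM (mouse 5) with a median of 41.3 CPM, and mice 1 and 4 stood far below the other 8, whose lowest value was 32.8 CPM. Ccrn4l, the older symbol of nocturnin, a rhythmically expressed phosphatase, ranged from 14.7 CPM (mouse 1) to 255 CPM (mouse 7) with a median of 89.9 CPM. Mt1 and Mt2, the metallothioneins that bind zinc, had SDs of 1.35 and 1.43, or 1.09 and 1.09 without the 2 mice, and mouse 7 had 395 CPM of Mt2 where the other livers had 15.5 to 121 CPM. Serpina1e, an α1-antitrypsin copy with near-identical paralogs, ranged from 501 CPM (mouse 10) to 9429.8 CPM (mouse 3) with a median of 2490.4 CPM. Chrna4, an acetylcholine receptor subunit, reached 48.5 CPM in mouse 9 and 24.9 CPM in mouse 10 and stood at 1.22 CPM in mouse 8. The pseudogene Serpina4-ps1 ranged from 0.86 CPM (mouse 7) to 34.2 CPM (mouse 8) with a median of 10.7 CPM. The spread of Rgs16, a regulator of G protein signalling, and of Lrtm2 rested more on the 2 mice, with SDs of 1.36 and 1.27 that were 0.73 and 0.43 without them. Rgs16 ranged from 15.5 CPM (mouse 8) to 218 CPM (mouse 5) with a median of 153 CPM and Lrtm2 from 1.01 CPM (mouse 3) to 30.1 CPM (mouse 7) with a median of 2.54 CPM.

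**Figure D2:**
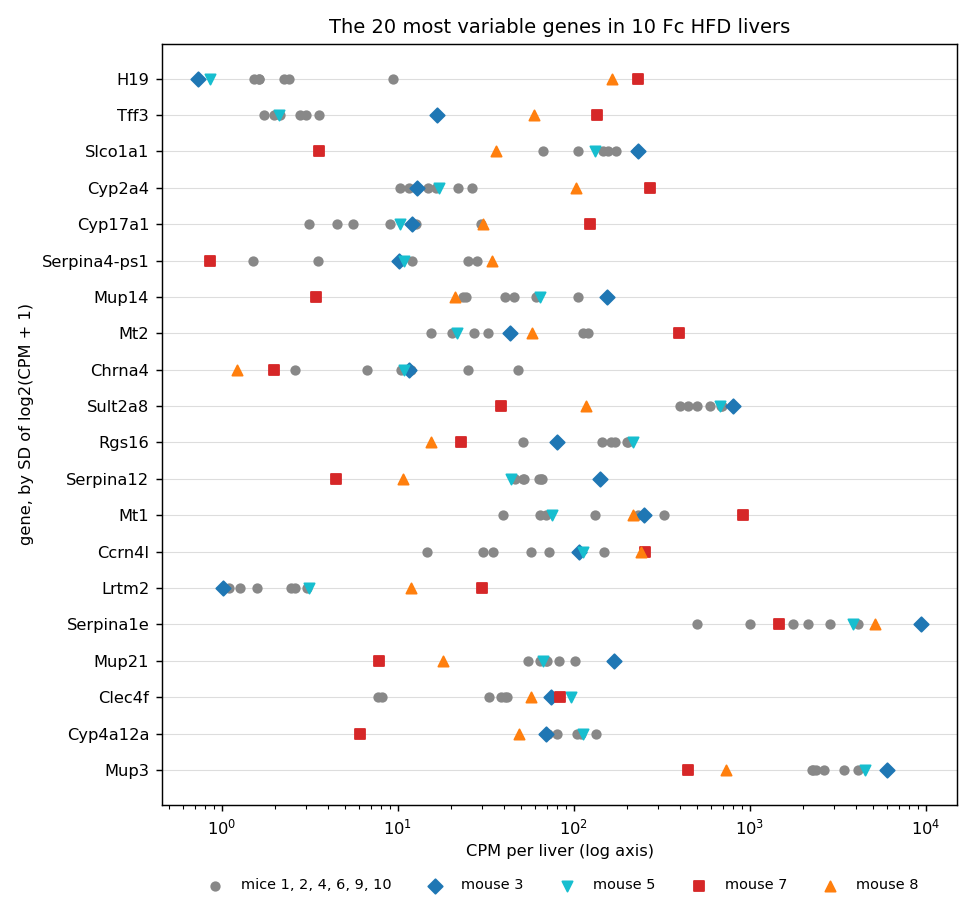
Each row is one of the 20 tested genes with the largest SD of log2(CPM + 1), each point the CPM of 1 liver on a log axis, with mice 3, 5, 7 and 8 marked by shape and colour. Mouse 7 lies at one end of most rows, as for H19 at 230.3 CPM and Slco1a1 at 3.57 CPM, while for Clec4f the lowest points are mice 1 and 4.

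To see which genes moved together, 10 genes were taken as anchors, each taken from the list of a cell type or pathway, and every other tested gene was fitted on the log2 CPM of the anchor with edgeR's quasi-likelihood test. The slope is the log2 change of a gene for each doubling of the anchor, given with its standard error over the 10 livers. A gene was called at a Benjamini-Hochberg adjusted p below 0.05 over the 12276 genes tested beside the anchor.

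Fibrillar collagen genes rose and fell together, and bile duct, macrophage and antigen presentation genes moved with them. Col1a1, the α1 chain of type I collagen, ranged from 58.8 CPM (mouse 5) to 188 CPM (mouse 7) with a median of 122 CPM. Mice 7, 4, 8, 1 and 9 lay above 140 CPM, and mice 3, 2 and 6 between 70.7 and 87.4 CPM. With Col1a1, 692 of 12276 genes rose (5.64%) and 220 of 12276 fell (1.79%), or 7.43% in either direction. Of the 23 other matrix genes, 18 rose and none fell. Col1a2, the partner chain of type I collagen, had a slope of 0.79 ± 0.08 (adjusted p = 0.000453, edgeR), Col3a1 one of 0.73 ± 0.09 (adjusted p = 0.00253, edgeR) and the beaded-filament collagens Col6a1 and Col6a2 0.84 ± 0.08 and 1.05 ± 0.09 (adjusted p = 0.000453 and 0.000316, edgeR). Fbn1, the core of elastic microfibrils, and Lum, a proteoglycan that binds collagen, rose with slopes of 0.73 ± 0.09 and 0.95 ± 0.14 (adjusted p = 0.00204 and 0.00488, edgeR). The median pairwise r over the 24 matrix genes was 0.77, against -0.00 over all pairs of tested genes.

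Fn1 and Postn were among the 5 matrix genes that were not called. Fn1, fibronectin, which hepatocytes also secrete, ranged only from 886 CPM (mouse 8) to 1432 CPM (mouse 6) with a median of 1147 CPM, and its slope on Col1a1 was -0.22 ± 0.10 (adjusted p = 0.198, edgeR). Postn, periostin, ranged from 5.63 CPM (mouse 6) to 28 CPM (mouse 7) with a median of 9.05 CPM, with a slope of 0.36 ± 0.32 (adjusted p = 0.536, edgeR). Of the 10 basement membrane genes 5 rose with Col1a1, and of the 13 stellate cell genes 3 did and none fell. The stellate list had a median r of 0.49 with Col1a1. An unadjusted edgeR p below 0.05 was reached by 6 of its 13 genes and by 2933 of all 12276 genes. The 2 stellate genes named next were among those that did not follow Col1a1. Acta2, the smooth muscle actin of activated stellate cells, had a slope of 0.14 ± 0.25 (adjusted p = 0.783, edgeR), and Lrat, which stores retinol in resting stellate cells, one of -0.10 ± 0.27 (adjusted p = 0.859, edgeR). Among the genes that fell with Col1a1, Angptl6, Sult5a1 and Retsat had the smallest p-values, with slopes of -1.09 ± 0.14, -1.77 ± 0.25 and -0.66 ± 0.10 (adjusted p = 0.00262, 0.00435 and 0.00502, edgeR). Retsat saturates retinol. Of the 18 fatty acid oxidation genes 2 fell with Col1a1 and of the 11 endothelial genes 2, while 2 of the 8 T and NK cell genes and 9 of the 12 lipid-associated macrophage genes rose.

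The cholangiocyte genes formed one of the tightest groups. Epcam, an adhesion molecule of bile duct cells, ranged from 4.28 CPM (mouse 3) to 37.5 CPM (mouse 4) with a median of 26.6 CPM, and mouse 5 had 5.23 CPM while each of the other 8 livers had at least 23 CPM. Cldn7, a tight junction protein, stood at 0.901 and 2.26 CPM in the same 2 livers and at 4.82 CPM or more elsewhere. Krt19, a bile duct keratin, ranged from 3.04 CPM (mouse 3) to 17 CPM (mouse 4) with a median of 9.03 CPM. Of the 8 tested cholangiocyte genes, 6 rose with Col1a1 and none fell, with slopes of 1.08 ± 0.22 for Krt19 (adjusted p = 0.0165, edgeR) and 1.33 ± 0.30 for Cldn7 (adjusted p = 0.022, edgeR). Epcam and Spint1 were the 2 members that were not called, and Epcam had 1.24 ± 0.35 (adjusted p = 0.0517, edgeR). Within this list the median pairwise r was 0.94, and between it and the matrix list 0.80, or 0.82 without mice 7 and 8. The count of genes called with Col1a1 rested on mice 3 and 5, the 2 livers lowest in duct genes. It was 285 without mouse 3 and 50 without mouse 5, where 6 of the 23 matrix genes still rose, and it was 832 without mice 7 and 8.

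Lipid-associated macrophage genes formed a second block. Gpnmb, a glycoprotein of lipid-laden macrophages, ranged from 295 CPM (mouse 2) to 960.4 CPM (mouse 8) with a median of 458 CPM. Mice 8, 4 and 7 were highest, at 696 CPM or more, and mouse 9 followed at 525.9 CPM. With Gpnmb, 343 of 12276 genes rose (2.79%) and 46 of 12276 fell (0.375%), or 3.17% in either direction. Of the 11 other genes of its list 10 rose. Atp6v0d2, a subunit of the lysosomal proton pump, had a slope of 0.85 ± 0.08 (adjusted p = 0.000537, edgeR), the protease genes Ctsk and Mmp12 had slopes of 1.05 ± 0.11 and 0.81 ± 0.12 (adjusted p = 0.000624 and 0.00337, edgeR), and Trem2, the lipid-sensing receptor, had 0.78 ± 0.11 (adjusted p = 0.00337, edgeR). Lgals3, galectin-3, and Itgax, the integrin CD11c, rose at 0.92 ± 0.12 and 0.88 ± 0.12 (adjusted p = 0.00209 and 0.00289, edgeR). The smallest p-values over all genes belonged to Cd84, a leukocyte receptor, and C3ar1, the complement C3a receptor, with slopes of 0.74 ± 0.06 and 0.89 ± 0.08 (adjusted p = 0.000291 and 0.000537, edgeR). Spp1, osteopontin, was the member that was not called, with a slope of 0.65 ± 0.33 (adjusted p = 0.31, edgeR). It ranged from 155 CPM (mouse 3) to 799.6 CPM (mouse 4) with a median of 528 CPM, and mice 3 and 5, the 2 livers lowest in duct genes, were the 2 lowest. Bile duct cells also express Spp1.

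MHC class II genes, which present antigen on macrophages, dendritic cells and B cells, moved as one. H2-Aa ranged from 104 CPM (mouse 5) to 336 CPM (mouse 7) with a median of 141.9 CPM, and Cd74, the invariant chain, from 246 CPM (mouse 5) to 825 CPM (mouse 7) with a median of 358 CPM. Their median pairwise r of 0.96 over 7 genes was the highest of the 32 lists with at least 3 tested genes, and it was 0.91 without mice 7 and 8. All 7 rose with Col1a1 and 5 of 7 rose with Gpnmb. The Kupffer cell list was less uniform. C1qa, a complement chain of macrophages generally, ranged from 93 CPM (mouse 1) to 235 CPM (mouse 7) with a median of 123 CPM, while Clec4f and Vsig4, which mark resident Kupffer cells, had their lowest values in mice 1 and 4 at 9.47 and 12.2 CPM of Vsig4 against 59.4 CPM in mouse 7. Marco, a scavenger receptor, ranged from 0.206 CPM (mouse 1) to 78.7 CPM (mouse 7) with a median of 3.86 CPM, with 48.9 CPM in mouse 6, and because it had too few reads in mouse 1 it was not among the tested genes. Mice 1 and 4, low in Clec4f and Vsig4, had 469.7 and 785 CPM of Gpnmb. With Gpnmb, 1 of the 8 tested Kupffer genes rose, and the median r between the lists was 0.58, or 0.26 without mice 7 and 8. The count of genes called with Gpnmb was 21 without mice 7 and 8, where 2 of the 11 list members rose, and 109 without mouse 8 alone. The slopes of all 11 members kept their sign without mice 7 and 8, and they were 1.02 for Ctsk, 0.80 for Lgals3, 0.74 for Itgax and 0.52 for Mmp12 (adjusted p = 0.0529, 0.0749, 0.121 and 0.159, edgeR). The list's median pairwise r was 0.88, and 0.82 without them. Genes that fell with Gpnmb included Ido2, Sirt5 and Retsat, with slopes of -0.51 ± 0.09, -0.51 ± 0.09 and -0.66 ± 0.13 (adjusted p = 0.0104, 0.0118 and 0.0191, edgeR). Without mice 7 and 8 their slopes were -0.49, -0.62 and -0.66, and none of the 3 was called (adjusted p = 0.179, 0.0893 and 0.171, edgeR).

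**Figure D3:**
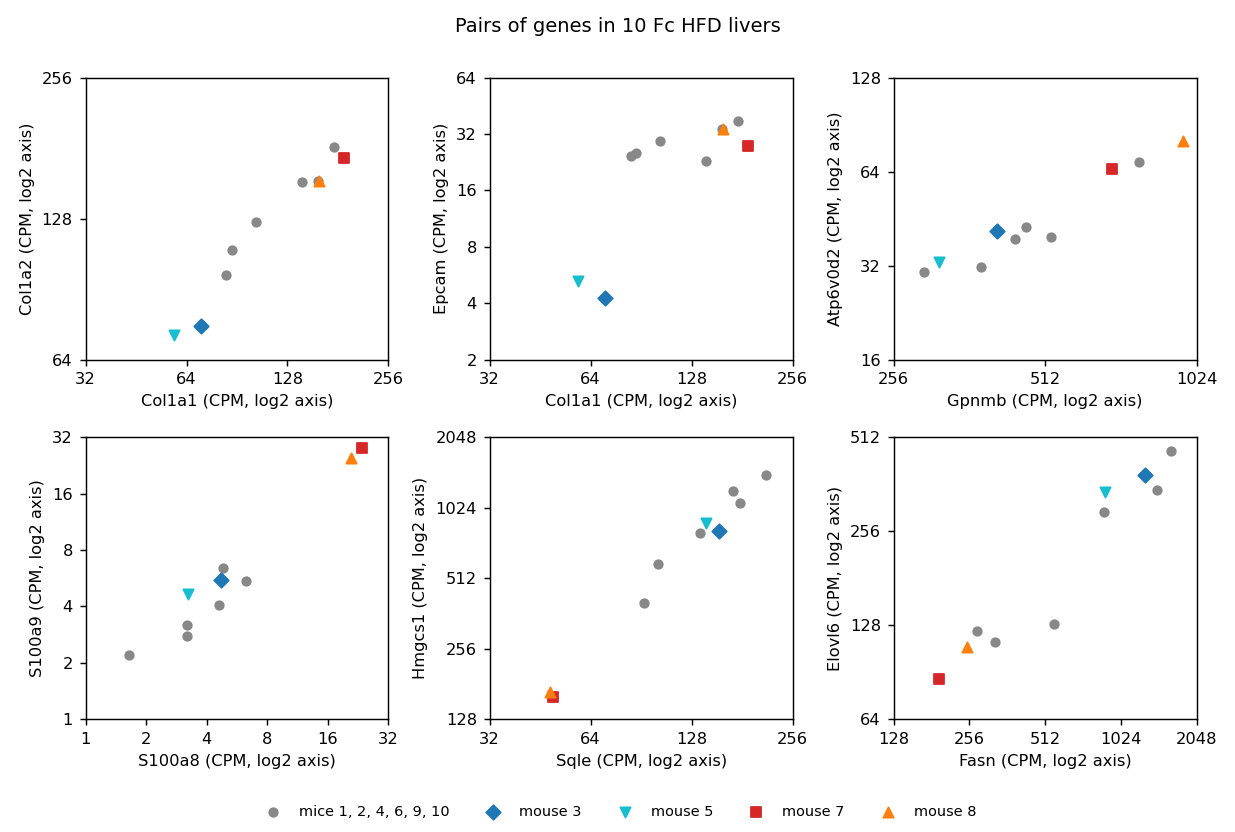
Each panel plots the CPM of an anchor (x axis) against that of another gene (y axis) in the 10 livers, both on log2 axes, with mice 3, 5, 7 and 8 marked. Col1a2 follows Col1a1 over the whole range, Epcam is set apart by mice 3 and 5 at 4.28 and 5.23 CPM, and in the panel of S100a8 and S100a9 mice 7 and 8 lie alone at the upper right.

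The calprotectin genes and 5 neutrophil granule genes were low in 8 livers and higher in 2, while Csf3r did not set these 2 apart. S100a8, a subunit of calprotectin, stood at 23.6 and 20.8 CPM in mice 7 and 8 and between 1.65 and 6.27 CPM in the others. S100a9, its partner, stood at 28.1 and 24.8 CPM and between 2.19 and 6.41 CPM. The granule genes Ngp, Ltf, Camp, Mpo and Elane did not have enough reads to be tested, and the same 2 livers were the 2 highest for each of the 5, with Ngp at 10.7 and 17.2 CPM against at most 2.99 CPM. In the other groups S100a8 reached 25.1 CPM in a liver from Fc with standard diet. Its highest value was 3.64 CPM in those from Fc(mML1)B3 with HFD and 6.16 CPM in those from Fc(mML1)B3 with standard diet. In the fit on S100a8, 235 of 12276 genes rose (1.91%) and 245 of 12276 fell (2%), or 3.91% in either direction. S100a9, Retnlg and Mmp9 were the 3 of 4 tested neutrophil genes that rose, with slopes of 1.02 ± 0.07, 0.54 ± 0.11 and 0.53 ± 0.12 (adjusted p = 1.33e-05, 0.0222 and 0.0258, edgeR), while Csf3r, the G-CSF receptor, had 0.14 ± 0.08 (adjusted p = 0.363, edgeR). H19 and Tff3 rose, at 2.32 ± 0.22 and 1.71 ± 0.21 (adjusted p = 0.000474 and 0.00232, edgeR). These calls describe mice 7 and 8 against the rest. Without both mice 1 gene was called, without mouse 7 alone 3 were, and none of the 4 neutrophil genes was called without both. The slopes of S100a9 and Retnlg were then 0.82 and 0.51 (adjusted p = 0.138 and 0.443, edgeR), and that of Mmp9 changed sign, to -0.12 (adjusted p = 0.856, edgeR). Those of H19 and Tff3 were 0.84 and 0.97 (adjusted p = 0.456 and 0.527, edgeR).

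The other inflammatory lists were also high in mouse 7, and less regularly in mouse 8. Of the 16 interferon response genes, 7 rose with S100a8. Ifit3, an antiviral effector induced by interferon, ranged from 18.3 CPM (mouse 9) to 35.1 CPM (mouse 7) with a median of 20.6 CPM, with mice 7, 6 and 8 on top. In the fit on Ifit3, 55 of 12276 genes rose (0.448%) and 45 of 12276 fell (0.367%), and no gene was called without mouse 7. Of 15 other interferon genes 3 rose, namely Ifi27l2a, Irf7 and Isg15, with slopes of 1.39 ± 0.17, 0.98 ± 0.17 and 1.18 ± 0.21 (adjusted p = 0.00821, 0.0239 and 0.0287, edgeR). These slopes were 1.07, 0.84 and 1.05 without mice 7 and 8, and none was called (adjusted p = 0.983 for each, edgeR). Ifi27l2a overlaps Ifi27, and their reads cannot be told apart there. Dnajc12 and Lrtm2 had slopes of 1.96 ± 0.23 and 4.40 ± 0.59 (adjusted p = 0.00821 and 0.0124, edgeR), and without mice 7 and 8 these were 1.91 and 1.19 (adjusted p = 0.707 and 0.983, edgeR). The median pairwise r of the interferon list was 0.64, and 0.15 without mice 7 and 8, and that of the 11 cytokine genes was 0.57 and 0.31.

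For the acute phase gene Lcn2, mice 7 and 8 were at opposite ends of the range. Lcn2, lipocalin-2, ranged from 96.5 CPM (mouse 8) to 880.1 CPM (mouse 7) with a median of 184 CPM, and mouse 8, which was among the highest for neutrophil and interferon genes, was the lowest here. Mouse 6 was next below mouse 7 at 363 CPM. Orm2, an acid glycoprotein, and Apcs, serum amyloid P, rose with Lcn2, with slopes of 0.86 ± 0.08 and 0.58 ± 0.07 (adjusted p = 0.00305 and 0.0217, edgeR), and these 2 genes were the only ones called (0.0163%). Orm1 and Saa3 had 0.47 ± 0.09 and 0.43 ± 0.10 (adjusted p = 0.462 and 0.462, edgeR). At an unadjusted p below 0.05, 14 of the 17 acute phase genes and 1190 of all genes passed. No gene was called without mouse 7, and 130 were without mouse 8. Without both, the slopes of Orm2 and Apcs were 1.03 and 0.70 (adjusted p = 0.382 and 0.543, edgeR). In the 8 livers without both mice, Lcn2 and S100a8 had r = 0.70 (exact permutation p = 0.043, adjusted p = 0.271 over 45 pairs) and rho = 0.90 (exact permutation p = 0.00456, adjusted p = 0.157). Saa1 and Saa2, the serum amyloid A genes, were highest in mouse 4 at 2886 and 3178 CPM, and mouse 7 had 1144 and 1054 CPM. The list's median pairwise r was 0.69, and 0.66 without mice 7 and 8.

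Cholesterol synthesis genes rose and fell together, and they ran against the inflammatory lists to unequal degrees. The median r with cholesterol genes was -0.73 for MHC class II, -0.72 for neutrophil, -0.67 for interferon and -0.61 for cytokine genes, and without mice 7 and 8 it was -0.32, -0.24, -0.27 and -0.26. For acute phase genes it was -0.39, and -0.62 without them. Sqle, squalene epoxidase, ranged from 48.6 CPM (mouse 8) to 213 CPM (mouse 9) with a median of 138.5 CPM. Mice 7 and 8 had 49.4 and 48.6 CPM, mouse 6 had 92 CPM and the others 102 CPM or more. With Sqle, 148 of 12276 genes rose (1.21%) and 100 of 12276 fell (0.815%), or 2.02% in either direction. Of the 21 other cholesterol genes 17 rose. Hmgcs1, which starts the mevalonate pathway, ranged from 159.9 CPM (mouse 7) to 1418 CPM (mouse 9) with a median of 805 CPM and had a slope of 1.50 ± 0.09 (adjusted p = 2.19e-06, edgeR). Idi1, which makes the second isoprenoid unit, and Hsd17b7, a late sterol reductase, had slopes of 1.45 ± 0.09 and 1.02 ± 0.08 (adjusted p = 2.19e-06 and 1.3e-05, edgeR). Lss, lanosterol synthase, Dhcr7, the last step to cholesterol, and Fdft1, squalene synthase, rose at 0.91 ± 0.08, 0.78 ± 0.07 and 0.89 ± 0.09 (adjusted p = 9.14e-05, 0.00011 and 0.000133, edgeR), and Fdft1 overlaps Ctsb and Lss overlaps 4930483K19Rik. Rdh11, a retinol dehydrogenase that is not in the list, had 1.05 ± 0.06 (adjusted p = 2.19e-06, edgeR). The median pairwise r over the 22 genes was 0.87, and 0.85 without mice 7 and 8.

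The genes that fell most clearly as Sqle rose were S100a9, S100a8 and H19, with slopes of -1.60 ± 0.14, -1.53 ± 0.15 and -3.52 ± 0.44 (adjusted p = 7.99e-05, 0.00018 and 0.00124, edgeR). Of the 7 MHC class II genes 5 fell, and of the 16 interferon genes 5. In the fit on S100a8, 16 of 22 cholesterol genes fell, led by Idi1, Hsd17b7 and Hmgcs1 at -0.89 ± 0.09, -0.62 ± 0.07 and -0.90 ± 0.11 (adjusted p = 0.000823, 0.00172 and 0.00232, edgeR). In the fit on Ifit3, 12 of 22 fell, with Mvd, mevalonate diphosphate decarboxylase, at -2.49 ± 0.31 (adjusted p = 0.00821, edgeR). Without mice 7 and 8 the slopes of Idi1, Hsd17b7 and Hmgcs1 on S100a8 were -0.66, -0.56 and -0.66 and that of Mvd on Ifit3 was -2.58, and none of the 4 was called (adjusted p = 0.148, 0.157, 0.2003 and 0.428, edgeR). Slc19a2, a thiamine transporter, and Clstn3 fell with Ifit3 too, at -1.01 ± 0.14 and -1.66 ± 0.24 (adjusted p = 0.0124 and 0.0176, edgeR), and without mice 7 and 8 these were -0.73 and -1.14 (adjusted p = 0.983 for both, edgeR). Without mice 7 and 8, 8 genes were called with Sqle, 3 of them cholesterol genes, while the slopes of all 21 cholesterol genes kept their sign, with 1.00 for Hsd17b7, 0.91 for Dhcr7 and 0.60 for Fdft1 (adjusted p = 0.0516, 0.0516 and 0.313, edgeR). None of S100a9, S100a8 and H19 was called there, with slopes of -1.01, -1.01 and -0.02 (adjusted p = 0.419, 0.469 and 0.998, edgeR).

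Hmgcs1, Idi1 and Hsd17b7 had the smallest p-values of the cholesterol genes in the fits on both Sqle and S100a8, and the 250 bases before their start sites show what these promoters share. They are written 5′ to 3′ on the strand of the gene, from RefSeq on GRCm38.p6, and capitals mark CCAAT on either strand (read as ATTGG on the gene's strand), the box that the factor NF-Y binds and that often lies beside SREBP sites.
Hmgcs1 (chr13:119690101-119690350, plus strand): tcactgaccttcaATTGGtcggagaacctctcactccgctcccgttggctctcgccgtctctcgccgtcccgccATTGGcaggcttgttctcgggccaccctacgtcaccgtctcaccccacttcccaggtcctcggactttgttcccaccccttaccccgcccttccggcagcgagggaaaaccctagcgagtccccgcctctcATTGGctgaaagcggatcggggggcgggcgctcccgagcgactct
Idi1 (chr13:8885356-8885605, plus strand): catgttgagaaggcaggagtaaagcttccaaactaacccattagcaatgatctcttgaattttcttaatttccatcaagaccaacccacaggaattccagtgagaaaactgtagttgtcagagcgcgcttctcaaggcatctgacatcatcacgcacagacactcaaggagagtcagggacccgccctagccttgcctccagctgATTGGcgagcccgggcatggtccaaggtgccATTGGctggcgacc
Hsd17b7 (chr1:169969206-169969455, minus strand): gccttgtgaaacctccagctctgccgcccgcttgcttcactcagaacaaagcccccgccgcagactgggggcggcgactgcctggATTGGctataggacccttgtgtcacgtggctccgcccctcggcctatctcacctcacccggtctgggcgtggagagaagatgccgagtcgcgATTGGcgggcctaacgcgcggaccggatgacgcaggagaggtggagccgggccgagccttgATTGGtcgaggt

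The box stood 3, 2 and 3 times in these promoters. Of the 22 cholesterol genes 14 had a promoter in the table, and where a gene had several start sites, a box before any of them was counted. So counted, all 14 held CCAAT on at least 1 strand in the 250 bases, against 40.4% of the 9412 tested genes with a promoter. The share was 73.3% of 15 lipogenic genes, 73.3% of 15 clock genes, 55.6% of 9 lipid-associated macrophage genes, 27.3% of 11 interferon genes and 23.1% of 13 matrix genes. With only the first start site of each gene in the table, 13 of the 14 cholesterol genes (all but Dhcr7), 8 of the 15 lipogenic genes and 36.4% of the tested genes held it. The sterol regulatory element in its classical form, which SREBP binds, was in none of the 14, and in 0.0425% of the tested genes. These letters were picked after several motifs had been searched, so that the shares are a description.

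Lipogenic genes moved with the cholesterol genes, and mice 9 and 10 were the 2 highest livers for both Sqle and Fasn. Fasn, fatty acid synthase, ranged from 194 CPM (mouse 7) to 1619.9 CPM (mouse 10) with a median of 718 CPM. Mice 7, 8, 6 and 2 had 323 CPM or less. With Fasn, 41 of 12276 genes rose (0.334%) and 5 of 12276 fell (0.0407%). Of 17 other lipogenic genes 9 rose, and of 22 cholesterol genes 10. Elovl6, the elongase of palmitate, had a slope of 0.79 ± 0.07 (adjusted p = 0.0005, edgeR), Acaca and Acacb, the acetyl-CoA carboxylases, 0.48 ± 0.05 and 0.87 ± 0.10 (adjusted p = 0.0005 and 0.00184, edgeR), and Acly, ATP citrate lyase, 0.73 ± 0.07 (adjusted p = 0.0005, edgeR). Acss2 and Thrsp rose at 0.86 ± 0.11 and 0.89 ± 0.13 (adjusted p = 0.00504 and 0.0124, edgeR), and Acss2 overlaps an antisense gene. Dgat2, the last step of triglyceride synthesis, ranged only from 436 CPM (mouse 7) to 684 CPM (mouse 3) with a median of 487 CPM, with a slope of 0.09 ± 0.06 (adjusted p = 0.709, edgeR). Srebf1, the lipogenic SREBP, had 0.18 ± 0.08 (adjusted p = 0.483, edgeR), and it overlaps Rai1. Mt2, Lrtm2 and Hsd17b6 fell with Fasn, at -1.16 ± 0.18, -1.30 ± 0.21 and -0.54 ± 0.09 (adjusted p = 0.0148, 0.0197 and 0.0198, edgeR). Without mice 7 and 8, 12 genes were called and 5 lipogenic genes rose, and the slopes of all 17 kept their sign. Thrsp had 0.80 there (adjusted p = 0.214, edgeR). The slopes of Mt2, Lrtm2 and Hsd17b6 were then -0.97, -0.46 and -0.41, and none of the 3 was called (adjusted p = 0.0971, 0.723 and 0.293, edgeR).

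The library totals went with several anchors at an unadjusted permutation p below 0.05. Pearson's r between the log2 total and the anchor was 0.68 for Sqle (permutation p = 0.0336, adjusted p = 0.1; Spearman's rho 0.60, permutation p = 0.0743, adjusted p = 0.227, n = 10), 0.66 for Fasn (permutation p = 0.0402, adjusted p = 0.1, rho 0.68, permutation p = 0.0343, adjusted p = 0.227) and -0.69 for Ifit3 (permutation p = 0.0304, adjusted p = 0.1, rho -0.64, permutation p = 0.0545, adjusted p = 0.227), and r without mice 5 and 9, the 2 farthest totals, was 0.70, 0.64 and -0.88. None of the 10 anchors passed the adjustment over the 10 relations. With the total as a second term in the model, 25 genes were called with Sqle, 12 of them cholesterol genes, 7 with Fasn, 4 of them lipogenic, 2 with S100a8 and 0 with Ifit3, while 355 were called with Col1a1, with 15 of 23 matrix genes rising, and 90 with Gpnmb, with 7 of 11. The slopes of the 21 cholesterol, 17 lipogenic, 4 neutrophil, 15 interferon, 23 matrix and 11 macrophage genes on the anchors of their lists all kept their sign there.

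Fatty acid oxidation genes moved together in part, and lipid droplet genes little. Pdk4, which blocks glucose oxidation in fasting, ranged from 4.19 CPM (mouse 6) to 16 CPM (mouse 4) with a median of 9.76 CPM, and no gene was called with it by edgeR (0%), although 648 had an unadjusted p below 0.05 and DESeq2 called 14. Pdk4 did not stand for its own list, since its median r was 0.04 with the 17 other oxidation genes, of which 0 had an unadjusted p below 0.05, and 0.62 with lipogenic and 0.61 with cholesterol genes, of which 13 of 18 and 15 of 22 did. Cpt1a, the gate of mitochondrial fatty acid import, ranged from 381 CPM (mouse 4) to 632 CPM (mouse 8) with a median of 543 CPM, and the median pairwise r over the 18 oxidation genes was 0.35, or 0.45 without mice 7 and 8, with 35.3% of pairs above 0.5 against 12.5% of all gene pairs. Cyp4a10 and Cyp4a14, fatty acid ω-hydroxylases and PPARα targets, were the widest of this list, from 132.7 CPM (mouse 6) to 637 CPM (mouse 5) with a median of 239 CPM for Cyp4a10 and from 61 CPM (mouse 6) to 529.8 CPM (mouse 5) with a median of 185 CPM for Cyp4a14, and mice 5 and 10 were the 2 highest for both. Plin2, the coat protein of lipid droplets, ranged from 408 CPM (mouse 6) to 583 CPM (mouse 3) with a median of 467 CPM, and Cidec, which fuses droplets, from 7 CPM (mouse 6) to 31.2 CPM (mouse 8) with a median of 12.53 CPM. The 9 droplet genes had a median r of 0.16. Of genes induced by fasting and glucocorticoids, Tat ranged from 403 CPM (mouse 1) to 2191 CPM (mouse 8) with a median of 971 CPM, Pck1 from 697 CPM (mouse 1) to 2915 CPM (mouse 8) with a median of 1581 CPM and G6pc, glucose-6-phosphatase, from 58.7 CPM (mouse 1) to 700.5 CPM (mouse 3) with a median of 173 CPM, and mouse 1 was lowest for all 3. The 13 genes of this list had a median r of 0.31.

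Hepatocyte zonation genes split the livers in 2 ways. The pericentral genes were low in mice 7 and 8. Glul, glutamine synthetase, ranged from 489 CPM (mouse 7) to 3211 CPM (mouse 4) with a median of 2244 CPM, with 809 CPM in mouse 8 and 2041 CPM as the lowest of the rest, and its reads include those of Mir8114. Cyp2e1 and Cyp1a2, drug-metabolizing enzymes, stood at 2951 and 177 CPM in mouse 7, at 4107 and 193 CPM in mouse 8, and at 5977 and 525 CPM or more in the rest. The median pairwise r of the 10 genes was 0.74, and -0.01 without mice 7 and 8. Of these genes 4 fell in the fit on S100a8, where 2% of all genes fell, and 3 rose with Sqle, where 1.21% of all genes rose. Cyp7a1, the rate-limiting enzyme of bile acid synthesis, followed another order, with a range from 105 CPM (mouse 1) to 422 CPM (mouse 3) with a median of 176 CPM. Periportal genes varied over all livers. Sds, serine dehydratase, ranged from 76 CPM (mouse 1) to 476 CPM (mouse 7) with a median of 170.5 CPM and Hal, histidase, from 84.4 CPM (mouse 4) to 327 CPM (mouse 7) with a median of 184 CPM. Sds overlaps Plbd2. Mice 1 and 4 were the 2 lowest for Sds and Hal, and the median r of the 8 genes was 0.85, or 0.81 without mice 7 and 8. Periportal genes ran against stellate cell and mesothelial genes, with median r of -0.55 and -0.72, and the 9 hepatocyte genes ran against the matrix and cholangiocyte lists at -0.56 and -0.68. These are medians over gene pairs in the same 10 livers, and each CPM is a share of its library.

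**Figure D4:**
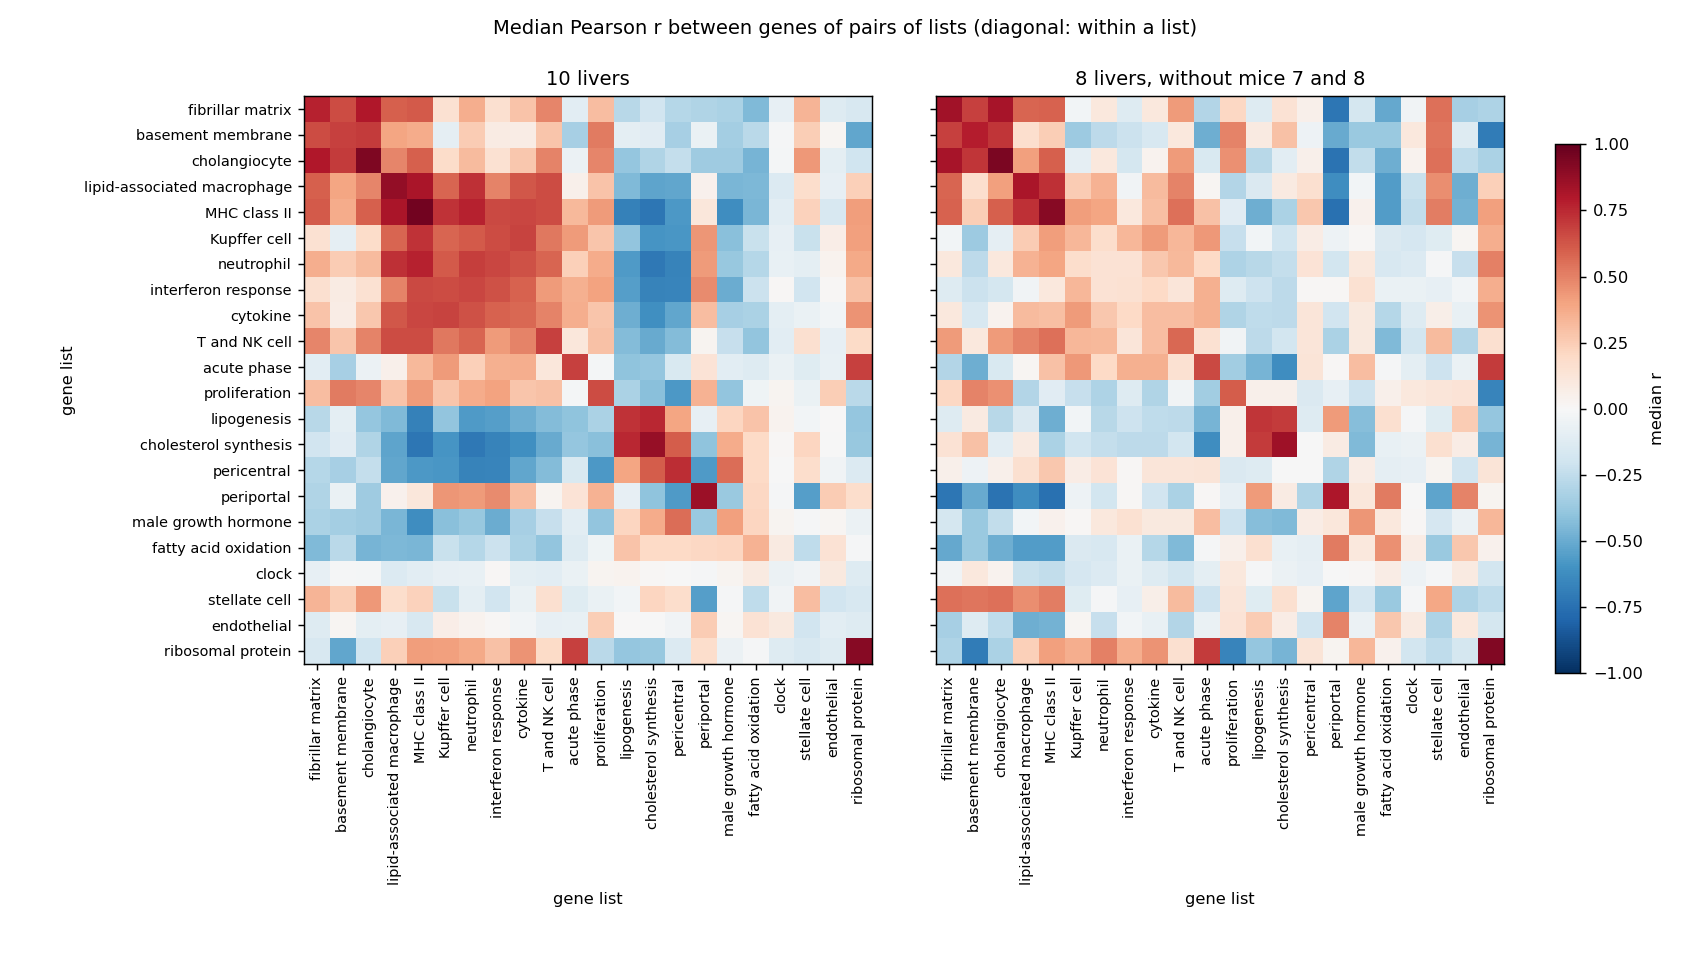
Each cell gives the median Pearson r of log2 CPM over all gene pairs drawn from 2 lists, or within a list on the diagonal, over 10 livers (left) and over the 8 livers without mice 7 and 8 (right). Cholangiocyte and matrix genes stay at 0.80 and 0.82, cholesterol and lipogenic genes at 0.76 and 0.70, while cholesterol and interferon genes go from -0.67 to -0.27 and periportal and matrix genes from -0.30 to -0.72.

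Clock genes did not move as 1 group, and their pairwise r had a median of -0.06 over 153 pairs of 18 genes, with 31 pairs above 0.5 and 22 below -0.5. This list holds genes known to peak at opposite times of day. The widest members were Nr1d1, the repressor REV-ERBα, which ranged from 36.4 CPM (mouse 8) to 179.9 CPM (mouse 1) with a median of 77 CPM, and Cry1, a cryptochrome, which ranged from 3.55 CPM (mouse 1) to 16.7 CPM (mouse 8) with a median of 10.5 CPM. Mouse 1 was the highest for Nr1d1 and the lowest for Cry1, and mouse 8 the lowest for Nr1d1 and the highest for Cry1, with r = -0.83 between the genes. Nr1d1 went with Dbp, a clock output factor (76.6 CPM (mouse 10) to 141.9 CPM (mouse 2) with a median of 103 CPM), at r = 0.87 and with Cry2 at 0.74. Cry1 went with Per2, a period gene, at r = 0.83. Arntl, which encodes BMAL1, was low in all livers, from 0.654 CPM (mouse 6) to 2.19 CPM (mouse 8) with a median of 1.22 CPM, and Per1 ranged from 23.2 CPM (mouse 6) to 60.4 CPM (mouse 8) with a median of 44 CPM. These r are descriptions over 10 livers, and the hour at which each liver was taken is not given in the sources used here.

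Per3, the anchor for the clock, had a narrow range, from 39.6 CPM (mouse 3) to 57.8 CPM (mouse 9) with a median of 47.5 CPM. No gene was called with it by edgeR (0%), 942 had an unadjusted p below 0.05, and DESeq2 called 8. Of the clock genes, Nr1d1, Dbp and Tef had the smallest p-values, with slopes of 2.53 ± 0.80, 1.04 ± 0.34 and 0.64 ± 0.24 (adjusted p = 0.64 for each, edgeR). Dbp overlaps Sphk2. Dbp and Tef are factors of the PAR bZIP family, which bind the D-box. The 250 bases before the start of Per3, from RefSeq on GRCm38.p6, hold the D-box letters TTATGTAA 2 times, shown in capitals below. Per3 was the only 1 of 15 clock genes with a promoter in the table that held them on either strand, against 0.616% of the 9412 tested genes. The E-box letters CACGTG stood in 33.3% of these 15 clock genes and 28.6% of 14 cholesterol genes, against 10.1% of the tested genes. The D-box was 1 of 4 motifs searched, and a link between it and the slopes on Per3 was not tested.
Per3 (chr4:151044666-151044915, minus strand): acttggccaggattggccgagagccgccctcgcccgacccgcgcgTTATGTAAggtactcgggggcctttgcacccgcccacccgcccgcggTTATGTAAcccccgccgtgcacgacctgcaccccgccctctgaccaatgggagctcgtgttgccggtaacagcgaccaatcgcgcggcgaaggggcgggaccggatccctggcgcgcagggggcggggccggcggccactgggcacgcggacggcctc

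**Figure D5:**
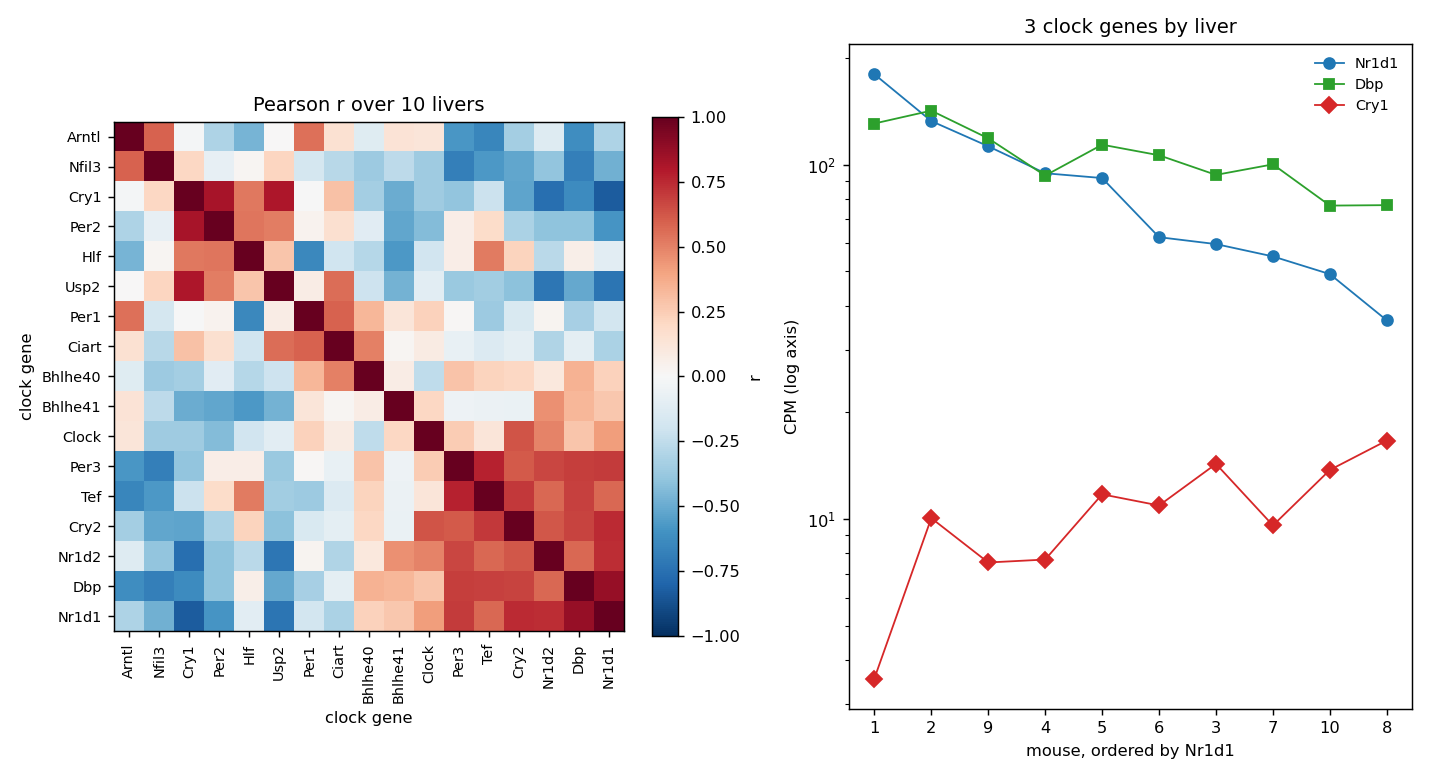
Left, Pearson r of log2 CPM between 17 of the 18 clock genes over 10 livers, 1 gene being counted in the text but not shown. Right, the CPM (log axis) of Nr1d1, Dbp and Cry1 in each liver, ordered by Nr1d1, from 179.9 CPM in mouse 1 to 36.4 CPM in mouse 8, along which Cry1 goes from 3.55 to 16.7 CPM.

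Proliferation genes were expressed at low levels. Mki67, a marker of cycling cells, ranged from 4.67 CPM (mouse 4) to 13.3 CPM (mouse 7) with a median of 8.15 CPM. No gene was called with it by edgeR (0%), 1028 had an unadjusted p below 0.05 and DESeq2 called 44. Ccna2, cyclin A2, came closest among its list with a slope of 1.32 ± 0.18 (adjusted p = 0.0723, edgeR). Ccnb2 and Top2a had 1.17 ± 0.19 and 1.26 ± 0.22 (adjusted p = 0.15 and 0.202, edgeR), and the median pairwise r over 16 genes was 0.65. Cytosolic ribosomal protein genes, by contrast, moved closely together at 0.91 over 11 genes, with mouse 9 the lowest at a median deviation of -0.43 and mouse 3 the highest at 0.26.

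Among the 45 pairs of anchors, 6 passed an adjusted p below 0.05 by Pearson's r, 5 of them among the 36 pairs without S100a8. S100a8 falls into 2 clusters of livers, and no r over all 10 is given for it. Fasn and Sqle had r = 0.89 (permutation p = 0.00023, adjusted p = 0.0101) and rho = 0.90 (permutation p = 0.00078, adjusted p = 0.0191), and r was 0.86 without mice 7 and 8, the 2 farthest for Fasn. Col1a1 and Gpnmb had r = 0.82 (permutation p = 0.0044, adjusted p = 0.0396) and rho = 0.85 (permutation p = 0.00287, adjusted p = 0.043), and r was 0.82 without mice 3 and 5, the 2 farthest for Col1a1. Ifit3 ran against Sqle at r = -0.88 (permutation p = 0.00183, adjusted p = 0.0274, rho -0.82, permutation p = 0.00589, adjusted p = 0.0536), against Fasn at -0.80 (permutation p = 0.00376, adjusted p = 0.0396, rho -0.70, permutation p = 0.0302, adjusted p = 0.154) and against Pdk4 at -0.81 (permutation p = 0.00587, adjusted p = 0.044, rho -0.82, permutation p = 0.00596, adjusted p = 0.0536). The interferon and oxidation lists had a median r of -0.21. Without mice 6 and 7, the 2 farthest for Ifit3, these 3 values were -0.91, -0.64 and -0.53. Within the 8 livers without mice 7 and 8, r of S100a8 and Sqle was -0.71 (exact permutation p = 0.0482) and rho -0.81 (exact permutation p = 0.0218), and S100a8 and Mki67 had r = -0.62 (exact permutation p = 0.095) and rho -0.86 (exact permutation p = 0.0107). No pair passed the adjustment there, with a smallest adjusted p of 0.236 by r and 0.157 by rho in exact permutation tests. The values of r in these 8 livers were 0.81 for Col1a1 and Gpnmb, 0.86 for Fasn and Sqle, -0.79 for Ifit3 and Pdk4, -0.75 for Ifit3 and Sqle and -0.62 for Ifit3 and Fasn. Without mouse 9 no pair passed it either.

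Some of these lists had a high r in the other 3 groups of livers too, and differences between groups were not tested. The median pairwise r of the MHC class II genes was 0.91 in livers from Fc(mML1)B3 with HFD (n = 10), 0.87 in those from Fc with standard diet (n = 9) and 0.86 in those from Fc(mML1)B3 with standard diet (n = 7), and that of the lipid-associated macrophage genes was 0.81, 0.84 and 0.89. In the same order, matrix genes had 0.73, 0.71 and 0.51 and cholangiocyte genes 0.91, 0.64 and 0.79. Pericentral genes had 0.74 here and 0.07, 0.28 and 0.04 in those groups. Cholesterol genes had 0.87 here and 0.18, 0.60 and 0.83 in those groups, and Sqle had an SD of log2(CPM + 1) of 0.74 here and of 0.19, 0.25 and 0.52 there. Clec4f had an SD of 1.22 here and of 1.23, 0.54 and 0.49 in the same groups, and in livers from Fc(mML1)B3 with HFD it ranged from 6.78 to 109.6 CPM.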

How the data were processed

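Liver RNA of 36 mice was sequenced as paired reads, and the 10 libraries of the Fc group under the HFD were used. The deposited files hold raw counts per gene. According to the methods and the submitters' processing notes, the authors trimmed reads, removed ribosomal reads with Bowtie2 2.4.5, aligned to mm10 with STAR 2.7.10a and counted reads with featureCounts (Subread 2.0.3), dropping reads with several alignments and ignoring strand, so that overlapping and antisense genes share reads.

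From the counts, CPM and log2 CPM (prior count 2) were computed with TMM scaling in edgeR 4.0.16 (R 4.3.3). For the SD, log2(CPM + 1) was used. Genes with low counts were removed with filterByExpr, which left 12277 genes. Each anchor's log2 CPM, centred, was the term of a quasi-likelihood model, with Benjamini-Hochberg adjustment over 12276 genes. Because the anchor is itself measured with error, slopes and p-values take its value as known. Pairs of anchors were tested by 100000 permutations. The other 26 libraries entered no fit. On simulated counts for the Col1a1 fit over 12276 genes, 29% of genes with a slope of 0.5 and 90% of those with a slope of 1 were recovered. For the S100a8 fit over 12276 genes these were 91% and 100%. Of the simulated calls, 1.65% were false for Col1a1 and 3.54% for S100a8. Each gene was drawn independently of the others there, whereas genes in the livers moved together, so that these shares may not hold for the real counts.

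The genes named were the 20 tested genes with the largest SD at a mean of at least 2 CPM, the 10 anchors, the 3 smallest p-values in each direction of each fit, up to 6 members of an anchor's list by p and up to 4 of other lists by SD. Further genes (among them Marco, Vsig4, the granule genes, Alb, Fn1, Postn, Acta2, Lrat, Spp1, Dgat2, Srebf1 and the clock pairs) were chosen after their values were seen. Some members of the lists are counted but not reported by name here. The anchors, the lists and this rule were chosen with earlier results of these data known. Alternatives were DESeq2 1.42.0, limma 3.58.1 (voom), other scalings and filters, the rank of the anchor, the library total as a second term, adjustment over all fits, and leaving out livers. Promoters were read from RefSeq on GRCm38.p6, and 4 motifs were searched on both strands, namely the CCAAT box, the sterol regulatory element, the E-box CACGTG and the D-box TTATGTAA.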

Additional observations from a re-analysis of the deposited data

Results flagged for a closer look

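Of 121 genes checked, 16 had 1 liver whose gap to its nearest neighbour took up more than 0.466 of the range over the 10 livers, and chance flags about 1 in 20 groups. The genes checked include those named for a large spread or for covarying with an anchor, so that the number cannot be set against that rate. In 12 of them mouse 7 was the highest liver. It had 135.2 CPM of Tff3 against 59.6 in the next liver, 269.7 of Cyp2a4 against 102.9, and 124.0 of Cyp17a1 against 30.6. For the metallothioneins it had 394.6 CPM of Mt2 against 120.8 and 916.6 of Mt1 against 324.7. Among inflammatory genes it had 880.1 CPM of Lcn2 against 362.7, 29.3 of Il1rn, the interleukin-1 receptor antagonist, against 14.7, and 5.82 of the neutrophil gene Retnlg against 3.28. Of the interferon genes it had 47.4 CPM of Ifi27l2a against 29.1 and 37.6 of Isg15 against 26.5. It had 30.1 CPM of Lrtm2 against 11.9 and 34.9 of Dnajc12 against 21.9.

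Mouse 3 was set apart in 3 genes, with 140.5 CPM of Serpina12 against 66.1 in the next liver, 9429.8 of Serpina1e against 5148 and 374.4 of Clec2d, a lectin-like ligand of NK cell receptors, against 267.0. Mouse 9 had 48.5 CPM of Chrna4 against 24.9.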

How the results depend on the processing

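The number of genes with an SD above 1 was 44, and in a separate count on the 8 livers without mice 7 and 8, scaled anew, it was 20. Counts of genes called with an anchor depended on the tool. DESeq2 called 1548 genes with Col1a1, 942 with Gpnmb, 1041 with S100a8, 22 with Lcn2, 489 with Ifit3, 44 with Mki67, 206 with Fasn, 700 with Sqle, 14 with Pdk4 and 8 with Per3. Voom called 1703 with Col1a1, 888 with Gpnmb, 1575 with S100a8, 1 with Lcn2 and 758 with Ifit3. With the anchor's rank the counts were 238 for S100a8, 4 for Lcn2, 0 for Ifit3, 1 for Mki67, 72 for Fasn and 40 for Sqle. With the library total as a second term they were 355 for Col1a1, 90 for Gpnmb, 2 for S100a8, 1 for Lcn2, 0 for Ifit3, 7 for Fasn and 25 for Sqle. Adjusted over all fits together they were 311 for Col1a1, 220 for Gpnmb, 243 for S100a8, 9 for Lcn2, 18 for Mki67, 5 for Pdk4 and 4 for Per3. Without mice 7 and 8 they were 21 for Gpnmb, 1 for S100a8, 0 for Lcn2, 0 for Ifit3, 12 for Fasn and 8 for Sqle, and 0 of the 45 anchor pairs passed. The slope of Mmp9 on S100a8 was then -0.12 and so changed sign. The cause of these differences was not tested, except that fits without livers have fewer samples.

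Leaving out 1 liver at a time gave 30 to 55 genes with an SD above 1, and 18 to 20 lists with a median r above 0.5. Calls ranged from 50 (without mouse 5) to 972 with Col1a1, from 109 (without mouse 8) to 521 with Gpnmb, from 3 (without mouse 7) to 704 with S100a8 and from 0 (without mouse 7) to 130 (without mouse 8) with Lcn2. They ranged from 0 (without mouse 7) to 309 (without mouse 6) with Ifit3, from 14 (without mouse 7) to 59 with Fasn, from 46 (without mouse 7) to 302 with Sqle and from 0 to 2 with Mki67, and were 0 throughout with Pdk4 and Per3. The number of anchor pairs past the adjustment was 0 (without mouse 9) to 9. Other livers moved a count by over 1.5 times, with 540, 285 and 550 genes for Col1a1 without mice 2, 3 and 8, and 219, 111 and 201 for Gpnmb without mice 2, 5 and 7. For S100a8 there were 319 and 273 without mice 5 and 8, for Fasn 22, 21 and 16 without mice 8, 9 and 10, and for Sqle 116 and 162 without mice 8 and 10. For Ifit3 there were 30, 172, 37, 21 and 52 without mice 1, 4, 8, 9 and 10. No paired analysis was possible because only 1 group was used. Depth limited genes with few reads in most livers, such as the granule gene Camp, with 0 to 6 reads in 8 livers and 30 and 68 in mice 7 and 8.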
